A study of Arabidopsis thaliana with 18 samples.

Results

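The systemic leaves of the *lecrk-VI.2-2* mutant were compared with those of the wild type (Col-0) in the induced state, 48 hours after lower leaves had been infiltrated with *Pseudomonas syringae* pv. *maculicola* (*Psm*). The comparison rests on 6 of the 18 arrays of the series, the 3 whose labels give *lecrk-VI.2-2* with *Psm* and the 3 whose labels give Col-0 with *Psm*, and covers 22746 probe sets. The plants of both groups had 3 lower leaves infiltrated with a *Psm* suspension (OD600 of 0.002 in 10 mM MgCl2). RNA came from systemic leaves of 12 plants pooled in each sample. The study's methods give 2 systemic leaves a plant, and its reporting summary gives 1. The mutant carries a T-DNA insertion in *LecRK-VI.2* in the Col-0 ecotype, and it is 1 allele. The study describes it as a knockdown by qPCR, so *LecRK-VI.2* transcript is reduced but not absent. For reference, 3 *lecrk-VI.2-2* and 3 wild-type arrays after infiltration of 10 mM MgCl2 alone give the state without systemic acquired resistance (SAR), and 3 *bak1-5* arrays after *Psm* give a mutant of another receptor kinase gene. The labels call the arrays of a group biological replicates and do not say whether they were grown or treated apart, so a *q* value speaks only of the spread among these arrays.

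SAR is the immune state that leaves acquire after an infection elsewhere on the plant. It depends on salicylic acid (SA), which is made mainly through isochorismate and acts through NPR1 and its relatives to switch on genes such as *PR1*. Jasmonic acid (JA) controls another set of defense genes, many of which are held down by JAZ repressors until the hormone is perceived. LecRK-VI.2 is a membrane receptor kinase with a lectin domain on the outside of the cell. It is studied as a receptor of extracellular NAD+ and as a partner of BAK1. The comparison asks which genes of the induced state differ in a knockdown of it.

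The deposited values are log2 intensities, so a difference of 1 is a 2-fold difference in signal. Differences are given as the mutant minus the wild type, with the standard error (SE) of a limma fit of all arrays. A probe set was called lower or higher at a *q* value of at most 0.05 and a difference of at least 2-fold. A list member or a single gene needed only the *q* value. The share of probe sets with a value of 6 or more was 16.8% on the array of *lecrk-VI.2-2* *Psm* replicate 3 and 16.0% on that of *lecrk-VI.2-2* MgCl2 replicate 2, while the wild-type arrays used here ranged from 18.3% to 19.6%. The median SD between arrays was 0.126 in the mutant and 0.0858 in the wild type after *Psm*. A probe set is called dim where no group had a mean of 6 or more.

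*LecRK-VI.2* (AT5G01540) itself gave values of 5.63, 5.68 and 5.45 in the mutant and 5.78, 5.91 and 5.84 in the wild type after *Psm*. The mutant arrays lay below all wild-type arrays, by -0.26 (SE 0.08, *q* = 0.0894), and after MgCl2 their mean was above by 0.08. The *q* value after *Psm* ran from 0.0341 to 0.332 over 12 alternatives, and only cyclic loess and median centring took it past the threshold. The probe set is dim, and the position of the insertion with respect to its probes is not given in the sources used here, so it does not test the labels. Of the 40 nearest annotated protein-coding genes, 20 on each side of *LecRK-VI.2* (RefSeq annotation of TAIR10.1), only 17 had an assigned probe set. None of the 17 passed a *q* of 0.05 in limma after *Psm* or after MgCl2, and their differences ran from -0.42 to 0.55 after *Psm*. *BAK1* (AT4G33430), which encodes the co-receptor, was at 5.57, 5.61 and 5.37 in the mutant and 6.06, 5.95 and 5.87 in the wild type, -0.44 (*q* = 0.0775). It is dim as well, and its *q* ran from 0.0223 to 0.271 over 12 alternatives, 4 of which took it past the threshold.

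The genes that separated the genotypes after *Psm* were for the most part lower in the mutant. Of all probe sets, 351 (1.54%) were lower and 25 (0.11%) were higher in *lecrk-VI.2-2*. The median difference was -1.46 over the 351 and 1.22 over the 25, beside 0.03 over all probe sets. In 84 of the lower probe sets the difference was at least 4-fold, and in 8 at least 8-fold. The mutant arrays were all below the wild-type arrays in 331 of the 351, and all above them in each of the 25, while such separation was found in 12% (below) and 12.9% (above) of all probe sets. Among the lower probe sets, 327 were assigned to 1 gene, and 57 were dim. *lecrk-VI.2-2* replicate 2 was the highest of the mutant arrays in 314 (89.5%) of the lower probe sets, against 29.7% of all, and the median distance from the wild-type mean was -1.67 and -1.74 on mutant replicates 1 and 3 and smaller on replicate 2. The lower count ranged from 235 to 433 when each array was left out in turn. It was 244 with array weights, which count an array less the more it deviates from its group. The higher count was 11 without *lecrk-VI.2-2* replicate 1, 11 without wild-type replicate 1 and 43 without wild-type replicate 2.

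After MgCl2, measured on other arrays, no probe set separated the genotypes at a *q* of 0.05 in limma, and 987 (4.34%) had an unadjusted p under 0.05. With array weights, 1 probe set was lower and 7 were higher, and 3 were higher without *lecrk-VI.2-2* MgCl2 replicate 2. The 351 probe sets that were lower after *Psm* had a median difference of -0.09 after MgCl2, where 70.1% of them were below 0, beside 54.5% of all probe sets. None of the 351 differed by 2-fold or more after MgCl2, the largest difference being 0.818 in size. The same holds for the 25 higher probe sets, whose median after MgCl2 was 0.00 and whose largest difference was 0.492 in size. The genotype difference after *Psm* minus that after MgCl2 passed a *q* of 0.05 for 311 probe sets (1.37%), and 160 of the 351 and 8 of the 25 were among them. The 351 and the 25 were selected on the difference after *Psm*, which is also part of this test. Their counts are therefore a description, with no reading against the 1.37%.

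**Figure D1:**
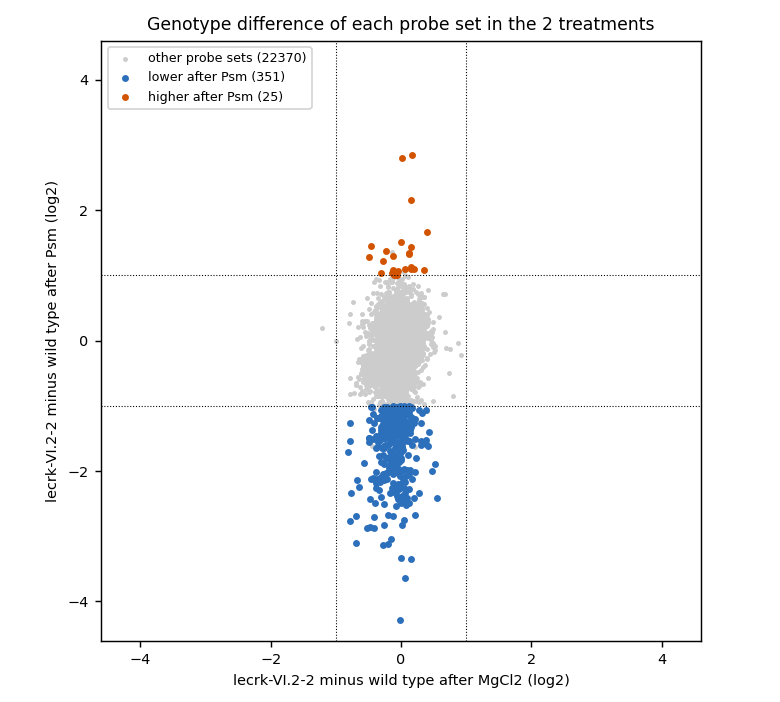
Each point is 1 of 22746 probe sets, with the log2 difference between *lecrk-VI.2-2* and wild type after MgCl2 on the x axis and after *Psm* on the y axis. The 351 lower (blue) and 25 higher (orange) probe sets spread along the y axis and lie between -1 and 1 on the x axis (dotted lines).

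The SAR markers *PR1* and *PR2* were among the genes with the largest separation, and *PR5* was lower by less. *PR1* (AT2G14610), the standard marker of SA signaling, was at 6.19, 6.47 and 6.27 in the mutant and 9.80, 9.52 and 9.67 in the wild type. The mutant arrays were close to one another and far below every wild-type array, a 10.2-fold difference (-3.35, SE 0.15, *q* = 3.08e-10). In the leaves without SAR, wild-type *PR1* was at 5.80, 5.88 and 5.92. The uninduced mutant was at 6.20, 5.79 and 6.05, so the mean of the induced mutant lay a little above both of these groups. *PR2* (AT3G57260), which encodes a beta-1,3-glucanase, was at 5.42, 6.47 and 5.46 in the mutant and 10.73, 9.48 and 9.98 in the wild type. Its difference of -4.28 (SE 0.43, *q* = 4.87e-06), 19.4-fold, was the largest of all probe sets. *PR5* (AT1G75040), a thaumatin-like protein gene, was at 7.20, 6.66 and 7.36 in the mutant and 9.58, 8.71 and 8.87 in the wild type. Its mutant arrays were 3.94-fold lower (*q* = 1.82e-05), yet all of them lay above the uninduced wild type, which was at 5.59, 5.41 and 5.86.

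The gene lists carry a selection that bears on every count of lower members. Most members got their name only because they rose in the wild type after *Psm* on the same wild-type arrays that they are compared with here. List counts and medians are therefore given as a description, with no reading against the share of all probe sets (4.73% lower and 1.29% higher at a *q* of 0.05, median 0.03). The members named by the platform annotation, which did not use the wild-type response, are given beside them. Over all lists 13 genes named in that way were lower, against 123 with all names. The counts over all 22746 probe sets given above do not use names.

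Of 24 listed SA-responsive genes, 21 had an assigned probe set, 18 of them named through the wild-type response. Of the 21, 16 were lower and none higher at a *q* of 0.05, with a median of -1.05, and with any 1 array left out 15 or 16 were lower. Of the 3 with a platform name, *WRKY53* and *GRX480* were lower and *LLP1* did not pass. *DLO1* (AT4G10500), which encodes an enzyme that hydroxylates SA, was at 4.03, 4.08 and 4.31 in the mutant and 7.58, 6.76 and 7.19 in the wild type. Those mutant arrays were 8.21-fold lower (*q* = 4.83e-08) and lay within 1 unit of the wild type without SAR, which was at 3.57, 3.62 and 3.97. *DMR6*, which encodes a related SA hydroxylase, had mutant values of 8.72, 8.98 and 8.77 and wild-type values of 10.12, 10.02 and 10.13. Here the difference was 2.40-fold (*q* = 1.21e-06), and the mutant arrays stood well above the uninduced wild type at 6.32, 6.36 and 6.33.

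Several transcription factor and regulator genes of the SA response were lower as well. *WRKY46* gave 5.46, 5.90 and 5.70 in the mutant against 7.32, 7.51 and 7.79 in the wild type, a 3.61-fold difference (*q* = 2.49e-07). *WRKY18* was 4.29-fold lower (*q* = 3.19e-05) and *WRKY53* 2.06-fold lower (*q* = 2.11e-05), the latter on a dim probe set. *GRX480*, which encodes a glutaredoxin that binds TGA factors, was 5.60-fold lower (*q* = 9.53e-05). *PNP-A*, the gene of a small secreted natriuretic-like peptide, was at 4.22, 4.13 and 4.46 in the mutant and 6.30, 6.13 and 6.38 in the wild type, so the groups were far apart (SE 0.14, *q* = 1.33e-07).

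A further 5 SA-responsive genes did not pass the test. *ACD6*, the gene of an ankyrin-repeat membrane protein, was at 10.48, 10.32 and 10.29 in the mutant and 9.90, 10.35 and 10.43 in the wild type, and the groups overlapped. Its difference was 0.14, with a 95% confidence interval from -0.34 to 0.61. *PCC1* was at 11.87, 11.86 and 11.79 against 12.07, 11.89 and 12.23, a difference of -0.22 (interval -0.85 to 0.41). *WRKY70*, an SA-responsive transcription factor gene, was at 8.94, 9.33 and 8.70 in the mutant and 9.43, 9.70 and 9.54 in the wild type (-0.57, interval -1.03 to -0.11, *q* = 0.157). All 3 mutant arrays of *WRKY70* lay below the wild type after *Psm*, and all 3 lay above the uninduced wild type, which was at 5.81, 6.45 and 6.39. *LURP1* (-0.50, *q* = 0.416) and the lectin gene *LLP1* (-0.91, *q* = 0.0836) complete the 5, with intervals of -1.13 to 0.13 and -1.54 to -0.29. The mutant arrays of these 5 genes were at 8.70 or more after *Psm*. After MgCl2, *ACD6*, *PCC1*, *WRKY70* and *LURP1* were at 0.67, 0.93, 0.42 and 0.74 above the wild type, none of which passed the test.

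**Figure D2:**
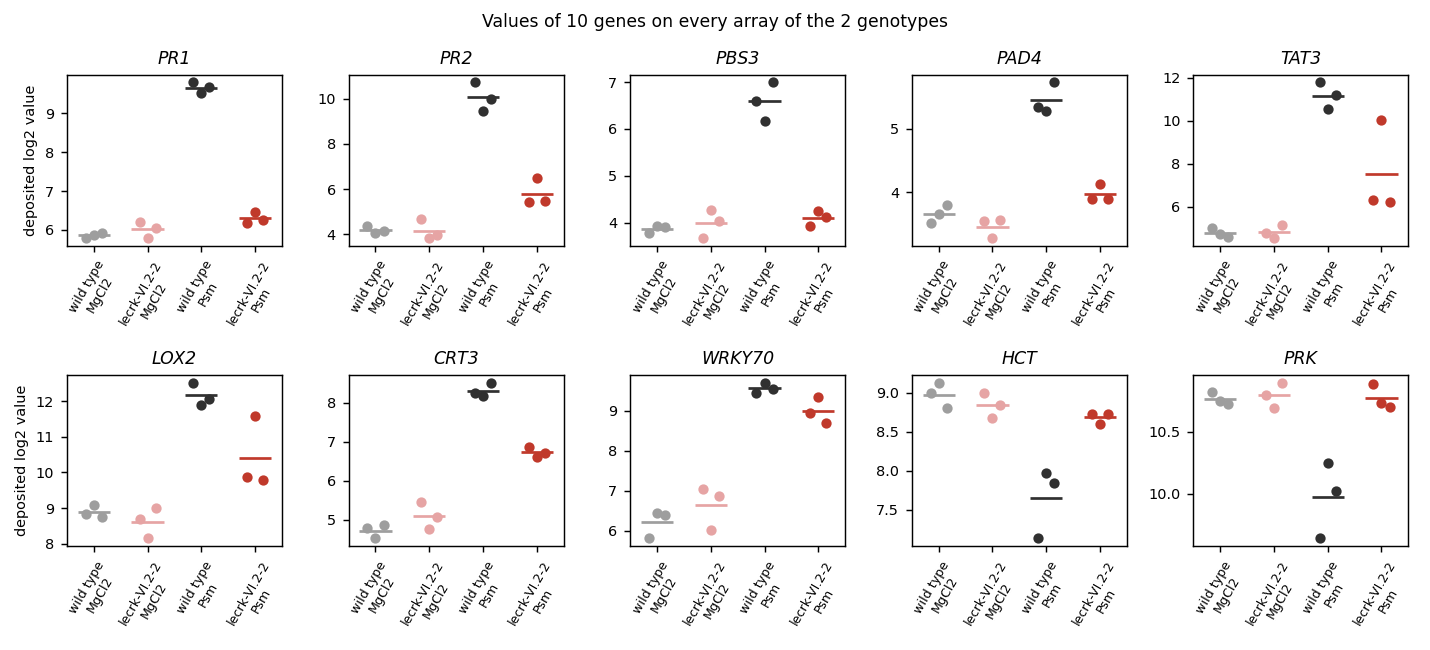
Deposited log2 values of 10 genes on each array (points) with the mean of each group (bars), for wild type and *lecrk-VI.2-2* after MgCl2 or *Psm*, each panel on its own axis. *PR1*, *PBS3* and *CRT3* of the mutant lie far below the wild type after *Psm*, 1 mutant array of *TAT3* and *LOX2* lies near the wild type, and *HCT* and *PRK* are higher in the mutant.

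Of 11 genes that make SA or regulate its synthesis 8 were assigned, 7 of them named through the wild-type response, and these 8 were lower with a median of -0.94. The platform-named member was *SAG101*, which encodes a partner of EDS1 (-0.50, *q* = 0.0201). *PBS3*, whose enzyme couples isochorismate to glutamate on the way to SA, was at 3.92, 4.25 and 4.12 in the mutant and 6.60, 6.18 and 6.99 in the wild type. This 5.63-fold difference (*q* = 1.71e-07) left the mutant near the uninduced wild type, which was at 3.79, 3.93 and 3.90. *ICS1*, the isochorismate synthase gene, was at 4.08, 4.73 and 4.19 in the mutant and 5.24, 5.52 and 5.34 in the wild type, 2.04-fold lower (*q* = 0.000905). *PAD4*, a lipase-like partner of EDS1 in immune signaling, was 2.79-fold lower (*q* = 1.19e-06), *EDS1* 1.81-fold lower (*q* = 2.87e-05) and *CBP60G*, a transcription factor of SA synthesis, lower as well (-1.07, *q* = 2.42e-05). The transporter gene *EDS5* (-0.50, *q* = 0.0373) was the only member whose groups overlapped, and 6 of the 8 probe sets, *ICS1*, *PAD4* and *CBP60G* among them, are dim. The mean of the 8 genes relative to the uninduced wild type was 0.15 ± 0.09 (SD, n = 3 arrays) in the mutant and 1.22 ± 0.18 in the wild type after *Psm*.

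Among the genes of SA perception, *NPR3*, one of the SA receptors, was lower, at 6.55, 6.93 and 6.50 in the mutant and 7.74, 7.67 and 7.85 in the wild type (2.13-fold, *q* = 0.000188). *NPR1*, the coactivator, was at 6.32, 6.38 and 6.22 against 6.40, 6.62 and 6.79, and *NPR4* at 6.32, 6.37 and 6.34 against 6.01, 6.45 and 6.30. Neither passed the test, and their intervals were -0.55 to -0.05 for *NPR1* and -0.15 to 0.32 for *NPR4*. Of 4 assigned genes of other proposed SAR signals, 3 were lower. *SARD4*, of pipecolic acid synthesis, was 2.05-fold lower (*q* = 0.000424), *UGT76B1*, whose product adds glucose to N-hydroxypipecolic acid and SA, 2.91-fold lower (*q* = 0.00411), and *RBOHD*, an NADPH oxidase gene, 2.07-fold lower (*q* = 0.0257). *RBOHD*, the one of the 3 without a platform name, had overlapping groups. It did not pass without mutant replicate 1, mutant replicate 3, wild-type replicate 1 or wild-type replicate 3 (*q* up to 0.15 over the alternatives). Neither *RBOHD* nor *UGT76B1* (*q* = 0.0825 for the latter) passed in a fit of the 6 compared arrays alone. *RBOHD* also did not pass with array weights or a trended robust prior. *SARD4* and *UGT76B1* are dim. *BSMT1*, the gene of the methyltransferase that makes methyl salicylate, was at 4.53, 9.20 and 5.83 in the mutant and 8.72, 8.48 and 8.98 in the wild type. One mutant array was above every wild-type array, and the difference did not pass the test (*q* = 0.201).

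Of 35 genes of JA synthesis and response 30 were assigned, 29 of them named through the wild-type response. Of the 30, 26 were lower and none was higher, with a median of -1.80, and with platform names alone the count was 1, *OPCL1*. Along the synthesis pathway, *LOX2*, *LOX3* and *LOX4* (lipoxygenases), *AOS* (the step before cyclization) and *AOC1*, *AOC3* and *AOC4* (cyclization) were all lower. So were *OPR3* (the reductase), *OPCL1* and *ACX1* (side chain shortening). The differences of these genes ran from 2.11-fold for *AOC4* to 6.52-fold for *OPR3*. The probe set of *AOC1* may also detect close copies. *AOC3* was the most even of these across arrays, at 4.70, 5.08 and 4.54 in the mutant and 6.62, 6.44 and 6.71 in the wild type (3.52-fold, *q* = 2.52e-07). *LOX2*, the chloroplast enzyme gene, was at 9.86, 11.59 and 9.78 in the mutant against 12.53, 11.91 and 12.07, so that 1 mutant array was near the wild type (*q* = 0.00829). *MYC2*, the transcription factor of the JA response, was at 5.49, 6.54 and 5.30 in the mutant and 8.06, 7.62 and 7.76 in the wild type (4.11-fold, *q* = 0.000406). The repressor genes *JAZ1* (5.79-fold), *JAZ5* (4.98-fold), *JAZ7* (3.50-fold) and *JAZ8* (2.74-fold) were lower, with *q* between 0.000411 and 0.0133. *TAT3*, the gene of a JA-responsive aminotransferase, was at 6.29, 10.05 and 6.21 in the mutant and 11.78, 10.54 and 11.18 in the wild type. Replicates 1 and 3 of the mutant lay far below the wild type, and replicate 2 lay within 1 unit of the lowest wild-type array. The 12.5-fold difference (SE 0.77 on the log2 scale, *q* = 0.0064) did not pass without mutant replicate 3 or in a fit of the 6 compared arrays alone (*q* up to 0.0531 over the alternatives).

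The 3 mutant arrays were uneven for the whole JA list. *lecrk-VI.2-2* *Psm* replicate 2 was the highest of the 3 mutant arrays for all 30 genes, compared with 29.7% of all probe sets. The mean of the 30 genes relative to the uninduced wild type was 0.48, 2.02 and 0.41 on the 3 mutant arrays and 3.01, 2.38 and 2.67 on the wild-type arrays. The mutant mean of 0.97 ± 0.91 (SD, n = 3) therefore spans a wide range, though each mutant array lay below each wild-type array. Without mutant replicate 1 the number of lower genes went from 26 to 13, without mutant replicate 3 to 10, without wild-type replicate 1 to 12 and without wild-type replicate 3 to 17. With mutant replicate 2 left out it was 28. The array weights were 2.01 for mutant replicate 2 and 0.60 and 0.38 for mutant replicates 1 and 3. With these weights the difference of *TAT3* was -2.28, beside -3.65 without them. The 4 JA genes that did not pass in the fit of all arrays were *JAZ3*, *JAZ10*, *CYP94C1* and *TPS4*. *JAZ10* was at 4.66, 7.52 and 4.74 against 7.84, 6.74 and 7.71 (*q* = 0.09). By contrast the SA-responsive genes were at 1.01, 1.31 and 0.99 on the mutant arrays and 2.64, 2.46 and 2.65 on the wild-type arrays. Of 4 assigned ethylene and defensin genes, *ACS6*, of ethylene synthesis, and the transcription factor gene *EIN3* were lower (*q* = 0.0284 and 0.0438), but neither passed without mutant replicate 1, mutant replicate 3, wild-type replicate 2 or wild-type replicate 3. *PDF1.2*, a defensin gene, was at 3.34, 3.52 and 3.25 in the mutant and 3.27, 3.26 and 3.40 in the wild type, and it is dim.

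**Figure D3:**
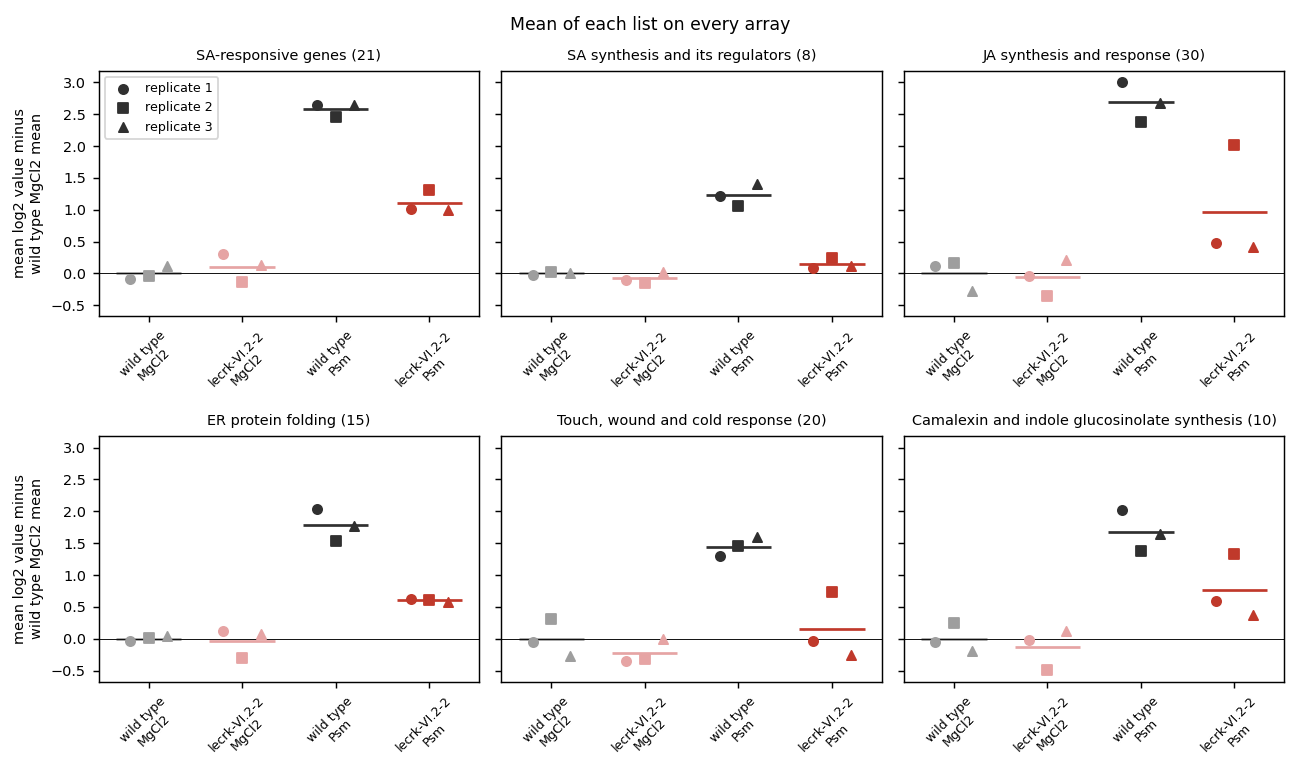
Mean log2 value of 6 gene lists on each array, minus the mean of wild type after MgCl2, with the replicates marked by shape and group means by bars; most members were named because they rose in wild type after *Psm*. The mutant *Psm* arrays of the SA and ER folding lists lie close together, and *lecrk-VI.2-2* *Psm* replicate 2 (square) lies above the other mutant arrays for the JA list (2.02 against 0.48 and 0.41), the touch list and the camalexin list.

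SAR leaves use the endoplasmic reticulum (ER) folding machinery to make secreted proteins such as the PR proteins. The mean of its listed genes differed between the genotypes, with little spread among the mutant *Psm* arrays and more among the wild-type arrays. Of 15 assigned members, 12 of them named through the wild-type response, 14 were lower and none was higher, with a median of -1.20, and the count was 14 whichever array was left out. All 3 with a platform name, *CRT2*, *BZIP60* and the J-protein gene *ERDJ3B* (-1.55, *q* = 0.000134), were lower. The mean of the 15 genes relative to the uninduced wild type was 0.61 ± 0.03 (SD, n = 3) in the mutant and 1.78 ± 0.25 in the wild type. *CRT3*, a calreticulin gene, was at 6.87, 6.61 and 6.73 in the mutant and 8.27, 8.17 and 8.52 in the wild type (-1.58, SE 0.15, *q* = 2.14e-06), while the uninduced wild type was at 4.77, 4.52 and 4.86. The HSP90-like chaperone gene *SHD* was at 7.65, 7.64 and 7.78 against 9.92, 9.23 and 9.32, 3.48-fold lower (*q* = 0.0004), and the calnexin gene *CNX1* was 3.13-fold lower (*q* = 9.1e-05). The other calreticulin genes, *CRT1* (2.30-fold, *q* = 1.19e-06) and *CRT2* (2.51-fold, *q* = 5.1e-05), the disulfide isomerase gene *PDIL1-2* (2.31-fold, *q* = 1.82e-05, dim) and *BZIP60*, a transcription factor of the unfolded protein response (2.13-fold, *q* = 0.000261), were lower. *HRD3A*, of the degradation branch, was the member that did not pass (-0.25, *q* = 0.19).

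Among 14 assigned genes of pattern-triggered immunity, 11 of them named through the wild-type response, 9 were lower, with a median of -0.54. None of the 3 with a platform name, *EFR*, *BIK1* and *WRKY22*, passed. *WRKY40*, a fast defense transcription factor gene, was at 4.27, 5.54 and 4.44 in the mutant and 7.92, 7.53 and 8.15 in the wild type (8.68-fold, *q* = 2.2e-05). *MPK11*, a mitogen-activated protein kinase gene, was 4.51-fold lower (*q* = 3.84e-06), the receptor-like kinase genes *SOBIR1* and *BIR1* were 3.57-fold and 2.45-fold lower (*q* = 0.000714 and 1.02e-06), and *WRKY33* was 2.68-fold lower (*q* = 0.000301). The receptor gene *EFR*, the cytoplasmic kinase gene *BIK1*, *WRKY22*, *MPK6* and *BAK1* did not pass, at -0.04, -0.17, -0.21, -0.38 and -0.44. All 5 of these probe sets are dim.

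Receptor kinase families gave smaller counts. Of 11 assigned cysteine-rich (CRK) and wall-associated receptor kinases 5 were lower, the median of the 11 was -0.40, and all 11 were named through the wild-type response. *CRK6* was at 4.57, 5.18 and 5.14 in the mutant and 7.60, 7.33 and 7.54 in the wild type, 5.77-fold lower (*q* = 5.61e-07), on a probe set that may also detect related kinases. *CRK4* (2.19-fold, *q* = 0.000539), *CRK7* (2.67-fold, *q* = 3.69e-05), *CRK45* (1.70-fold, *q* = 9.79e-05) and *CRK37* (1.32-fold, *q* = 0.0123) were lower, the last 3 on dim probe sets. Only 3 of 29 L-type lectin receptor kinases had an assigned probe set, named in the same way. *LECRK-IV.1* was at 7.07, 7.20 and 6.86 against 7.54, 7.83 and 7.92 (1.65-fold, *q* = 0.015), and *LECRK-IV.3* at 5.59, 5.35 and 5.23 against 5.65, 5.93 and 5.99 (1.38-fold, *q* = 0.0257). Neither kept the call without *lecrk-VI.2-2* replicate 3 or without wild-type replicate 3. Of 3 intracellular immune receptors, also named through the wild-type response, the helper *ADR1-L1* was lower (1.99-fold, *q* = 0.00493), while *ADR1-L2* and *ZAR1* gave -0.50 and -0.55 (*q* = 0.185 and 0.143).

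Genes that respond within minutes to touch, wounding or cold were lower in 16 of 20 assigned, with a median of -1.31, and 17 of the 20 were named through the wild-type response. Of the 3 with a platform name, *STZ* and the calmodulin-like gene *CML38* (-1.83, *q* = 0.00444) were lower and *CML39*, of the same family, gave 0.01. *STZ*, a zinc finger repressor gene, was at 5.30, 7.66 and 5.15 in the mutant and 9.10, 8.95 and 9.36 in the wild type (8.57-fold, *q* = 0.00461), and the uninduced wild type was at 5.19, 6.22 and 4.57. The zinc finger genes *CZF1* (4.61-fold, *q* = 8.93e-06), *ZAT12* (3.51-fold, *q* = 0.000631) and *ZAT6* (2.94-fold, *q* = 0.000219) and the RNA deadenylase gene *CAF1B* (3.13-fold, *q* = 9.87e-05) were lower. *TCH3*, a calmodulin-like gene, was lower by 3.26-fold (*q* = 0.00331), and *NHL3*, a plasma membrane protein gene, by 4.04-fold (*q* = 0.000301). Mutant replicate 2 was the highest mutant array for 19 of these 20 genes, and 10 were lower without mutant replicate 1 and 10 without mutant replicate 3.

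Camalexin and indole glucosinolate synthesis, which makes tryptophan-derived defense compounds, had 8 of 10 assigned genes lower and a median of -1.04, and 8 of the 10 were named through the wild-type response. Of the others, *IGPS* was lower and *UGT74B1* did not pass. *CYP79B2*, of the first step from tryptophan, was at 6.87, 7.81 and 6.54 in the mutant and 9.09, 8.29 and 8.41 in the wild type (2.88-fold, *q* = 0.00111). *CYP79B3* was 2.07-fold lower (*q* = 0.0136), and *ASA1* and *IGPS*, of tryptophan synthesis itself, were each 2.29-fold lower (*q* = 0.0136 and 0.017) with overlapping groups. Only 1 of the 10 was lower without mutant replicate 1, without mutant replicate 3 or without wild-type replicate 1, and 2 without wild-type replicate 3. *SUR1* and *UGT74B1*, later steps of the pathway, gave -0.14 and -0.09. Of 5 glutathione transferase genes 3 were lower, all named through the wild-type response, *GSTF6* at 6.86, 7.63 and 7.47 against 9.34, 9.03 and 9.13 (3.60-fold, *q* = 1.17e-06, on a probe set that may also detect a close copy), *GSTF8* by 1.59-fold (*q* = 0.0105) and *GSTU4* by 1.65-fold (*q* = 0.0429). Only 1 of the 3 was lower without mutant replicate 3 or without wild-type replicate 3.

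Of the genes of NAD synthesis and turnover, 2 of 7 assigned were lower, and both encode hydrolases and were named through the wild-type response. *NUDT6*, which splits NADH, was at 6.50, 7.10 and 6.25 in the mutant and 8.77, 8.11 and 8.50 in the wild type (3.58-fold, *q* = 6.29e-06). *NUDT7*, a hydrolase of ADP-ribose and NADH that restrains EDS1-dependent defense, was at 6.18, 6.62 and 6.33 against 7.85, 7.79 and 7.98 (2.82-fold, *q* = 0.000414). Both counts were the same whichever array was left out. The genes of synthesis did not pass, with *AO* at 0.25, *QPT* at -0.26, *NADS* at 0.03, *NMNAT* at 0.04 and *NAPRT2* at -0.12. The median of the 7 was -0.12.

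Of 5 assigned senescence genes, *SAG21* (2.90-fold, *q* = 0.00302), *SAG13* (2.14-fold, *q* = 0.00368) and *PAO*, a chlorophyll breakdown gene (1.63-fold, *q* = 0.0289), were lower, all 3 named through the wild-type response. *PAO* did not pass without mutant replicate 1, mutant replicate 3 or any 1 wild-type array (*q* up to 0.168 over the alternatives). Neither *PAO* nor *SAG13* (*q* = 0.0711 for the latter) passed in a fit of the 6 compared arrays alone, and *PAO* did not with array weights. Of 5 abscisic acid and drought genes, named in the same way where lower, *RD20*, *ERD10* and *ABI1* were lower, by 3.06-fold, 2.03-fold and 1.44-fold (*q* = 0.0123, 0.0307 and 0.0382), and none of the 3 passed without mutant replicate 3 and only 1 without mutant replicate 1 or any 1 wild-type array.

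**Figure D4:**
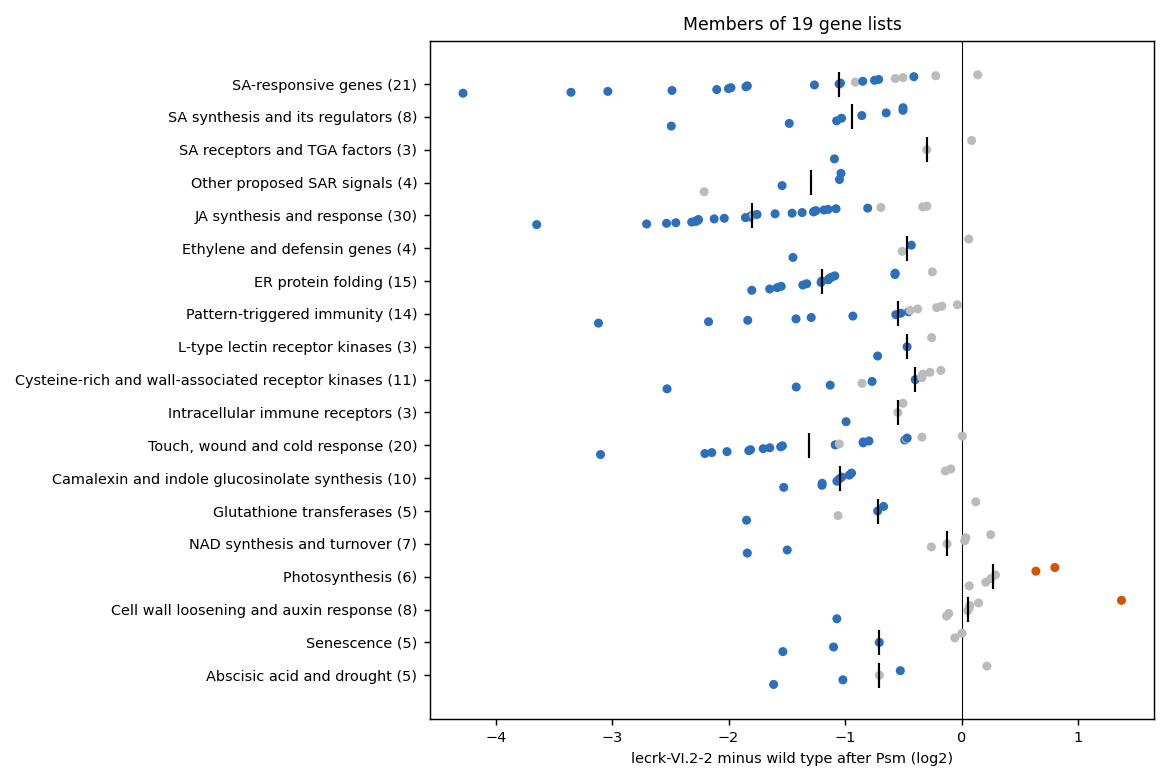
Log2 difference between *lecrk-VI.2-2* and wild type after *Psm* for each assigned member (point) of the 19 lists with 3 or more assigned genes (number in brackets), with list medians as black bars. Blue points are lower and orange points higher at a *q* of 0.05, and grey points did not pass. Members of the SA synthesis, JA and ER folding lists, most of them named because they rose in the wild type, lie left of 0, and those of the photosynthesis list, named by the platform, lie right of it.

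Other genes among the 12 assigned genes with the most negative differences are given here, and those with only a locus number were assigned no function. AT3G01830 was at 3.34, 3.37 and 3.22 in the mutant and 6.69, 6.18 and 7.04 in the wild type (-3.33, *q* = 4.88e-09), and the uninduced wild type was at 3.16, 3.04 and 3.31. Every mutant array was close to the uninduced level. AT4G27652 was at 4.78, 5.85 and 4.13 against 8.07, 7.62 and 8.49 (-3.14, *q* = 2.48e-05). *ORA47*, an ERF transcription factor gene of JA synthesis, was at 6.27, 7.94 and 5.94 against 9.34, 9.61 and 9.70 (7.13-fold, *q* = 0.000211), and *UCP5*, a mitochondrial dicarboxylate carrier gene, at 5.84, 7.20 and 5.48 against 8.99, 8.90 and 9.24 (7.31-fold, *q* = 0.000313). AT4G29780 and AT3G28220 were lower by 7.34-fold and 7.23-fold (*q* = 0.000488 and 0.0107), and AT3G28220 at 7.37, 10.59 and 7.59 had replicate 2 near the wild type at 11.65, 11.29 and 11.17. For this last gene the call was lost without mutant replicate 1, mutant replicate 3 or wild-type replicate 1. It was also lost in a fit of the 6 compared arrays alone and with a trended robust prior.

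The 25 higher probe sets included 13 assigned to a gene, and 12 had no gene in the sources used. The ranking here covers assigned genes only. In 3 of the 25 the difference was at least 4-fold, and of these only AT1G62510 and AT1G13650 have a name. AT1G62510 was at 8.37, 8.17 and 8.23 in the mutant and 4.26, 6.51 and 5.47 in the wild type, a 7.17-fold difference (*q* = 0.000551). Without SAR the mutant was at 9.72, 9.46 and 10.25 and the wild type at 9.86, 9.65 and 9.44, so that both genotypes were lower after *Psm* and the wild type more so. AT1G13650 was at 7.61, 6.87 and 6.91 against 4.25, 5.43 and 5.25 (4.45-fold, *q* = 2.11e-05). *ATSPS4F*, a sucrose-phosphate synthase gene, was 2.84-fold higher (*q* = 0.00742), and *HCT*, an enzyme gene of lignin synthesis, was at 8.73, 8.60 and 8.73 in the mutant and 7.13, 7.97 and 7.84 in the wild type (2.05-fold, *q* = 0.00103). The cell wall genes *EXPA8*, an expansin (2.59-fold, *q* = 0.0188), and *XTH32*, a xyloglucan endotransglucosylase (2.12-fold, *q* = 0.00829), were higher. The other 6 of the 12 assigned genes with the most positive differences, AT2G10940, AT1G55960, AT1G15260, AT1G23390, AT5G55620 and AT2G29290, were higher by 1.07 to 1.46 on the log2 scale. In all 12 the lowest wild-type value was that of replicate 1, and without it AT2G10940, *EXPA8*, AT1G15260, AT1G23390, AT5G55620 and *XTH32* no longer passed. Of these, all but AT5G55620 also did not pass without mutant replicate 1, and AT2G10940 and *EXPA8* did not without mutant replicate 3. AT2G10940, AT1G23390 and AT2G29290 (*q* = 0.0521 for the last) did not in a fit of the 6 compared arrays alone. AT2G10940 and *EXPA8* did not with a trended robust prior, and AT2G10940 did not with array weights.

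Photosynthesis genes pointed the same way with smaller differences. Of 6 assigned of 28, all with a platform name, 2 were higher and none was lower, with a median of 0.27. *PRK*, the phosphoribulokinase gene of the Calvin cycle, was at 10.88, 10.73 and 10.70 in the mutant and 9.64, 10.25 and 10.03 in the wild type (1.74-fold, *q* = 0.000313), while both genotypes without SAR were between 10.69 and 10.90. *PSAN*, of photosystem I, was at 11.62, 11.28 and 11.42 against 10.54, 10.98 and 10.89 (1.56-fold, *q* = 0.00116). *RCA*, which activates Rubisco and marks mesophyll, was at 12.79, 12.77 and 12.77 against 12.42, 12.61 and 12.55 (0.25, *q* = 0.071). Of 8 assigned cell wall and auxin genes, *EXPA8* was higher and *XTH24* lower (-1.07, *q* = 0.0211), the latter not without mutant replicate 1, mutant replicate 3 or wild-type replicate 1. *GI* was the only clock gene assigned, at 0.16 (*q* = 0.538).

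The tissue label could be checked in part. *RCA* was above 12 on every array, as a green leaf gives, and *FAMA*, of guard cells, gave 0.14 (*q* = 0.455) on a dim probe set. Of the vascular markers, the sugar transporter gene *SWEET12* was at 5.51, 6.37 and 5.73 in the mutant and 7.74, 6.92 and 6.94 in the wild type (2.52-fold lower, *q* = 0.00318), and *SWEET11* gave -0.05 (*q* = 0.876), with a sign that changed under some settings. No marker of epidermis, dividing cells or flowers was assigned to a probe set here. In such bulk samples, fewer cells of a type and less RNA per cell cannot be told apart.

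The *bak1-5* mutant gave a second view of the same genes, against the same 3 wild-type arrays, so that the differences are set side by side and not compared as independent results. *PR1* was at 7.35, 7.95 and 7.23 in *bak1-5*, above every *lecrk-VI.2-2* array, and the direct difference between the mutants was -1.20 (*q* = 0.00174). *PR5* was at 8.04, 8.50 and 8.29 in *bak1-5*, also above every *lecrk-VI.2-2* array (-1.20, *q* = 0.0262). For *PBS3* the *bak1-5* arrays were at 3.92, 4.45 and 4.00, close to *lecrk-VI.2-2* (-0.03, *q* = 0.97). The direct difference passed a *q* of 0.05 for 45 probe sets (0.198%) in limma, and *PR1* and *PR5* were the only list members among them. *PR2* was at 6.51, 8.37 and 6.18 in *bak1-5*, -1.24 between the mutants, and did not pass (*q* = 0.27).

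Against the wild type after *Psm*, the median over the SA-responsive genes was -0.92 in *bak1-5* beside -1.05 in *lecrk-VI.2-2*, with 12 and 16 of 21 lower. For SA synthesis the medians were -0.70 and -0.94, with 7 and 8 of 8 lower. For ER folding they were -0.72 and -1.20, with 9 and 14 of 15 lower, and for the JA list -1.02 and -1.80, with 6 and 26 of 30 lower. The *bak1-5* arrays were uneven for the JA list too, with means of 1.72, 2.18 and 0.90 relative to the uninduced wild type. The last of these, replicate 3, had an array weight of 0.30. In *lecrk-VI.2-2* the JA count ranged from 10 to 28 when 1 array was left out. In *bak1-5*, 2.28% of all probe sets were lower and 1.75% higher at the same *q*. These lists carry the selection on the wild-type response here too. None of the JA, ER folding or SA synthesis genes passed the direct test between the mutants. *HCT* (0.96 in *bak1-5*), *PRK* (0.76) and AT1G13650 (1.75) were higher than the wild type in *bak1-5* as well, with *q* of 0.00277, 0.000836 and 0.000274.

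**Figure D5:**
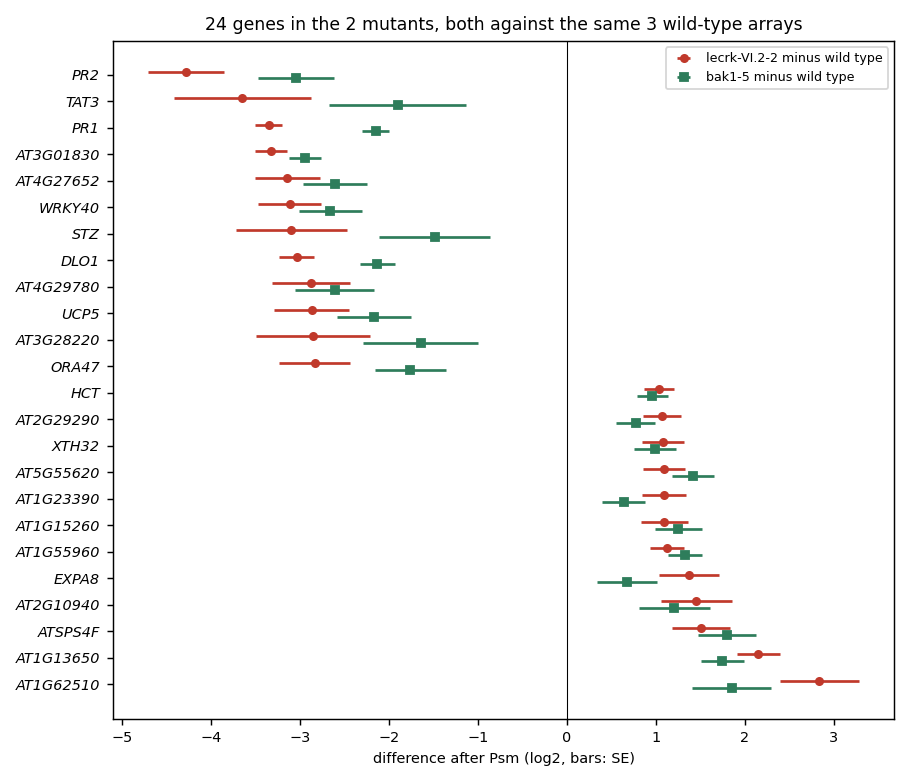
Log2 difference after *Psm* of *lecrk-VI.2-2* (red circles) and *bak1-5* (green squares) from the same 3 wild-type arrays, with the standard error of the fit as bars. The genes are the 12 with the most negative and the 12 with the most positive difference in *lecrk-VI.2-2* among those assigned to a probe set. Probe sets without a name were not ranked. *PR1* is at -3.35 in *lecrk-VI.2-2* and -2.15 in *bak1-5*.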

How the data were processed

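Total RNA of systemic leaves was hybridized to Affymetrix ATH1 arrays. Per the labels and the study's methods, the authors turned the scans into 1 log2 value a probe set with the affy package (RMA, which corrects background and applies quantile normalization), and deposited those values. No replicate was pooled by the authors in these values. Of 22810 probe sets, 64 control sets were left out. Group means of all 18 arrays were fitted in R 4.3.3 by the linear model of limma 3.58.1 with moderated variances (12 residual degrees of freedom). Benjamini-Hochberg *q* values cover 22746 probe sets. The limits on *q* and fold are those the study used for induced genes. Tested on simulated data for this comparison (22746 probe sets), these steps called 100% of 100 sets changed by 1.5 and of 100 changed by 3, and 0 others. The simulated noise was independent between arrays, had the same SD in every group and held no deviation shared by many genes of an array. The result therefore checks the steps only and gives no error rate for the real calls. Precision is limited by the number of arrays, since there are no reads to count.

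Probe sets were named by the platform annotation (13496) or, for 982 more, by a unique match of their changes to rows of the study's supplementary gene table, used as a key only. Those rows hold genes that rose in the wild type, so list counts are selected towards genes lower in the mutant. Sets with several, conflicting or no genes (524, 46 and 7698) were not named, *BKK1* among them. Lists use the probe set with the highest mean of each gene.

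Members and lists were chosen with earlier results of these data known. Named were *LecRK-VI.2*, *BAK1*, 3 *PR* genes and up to 4 members of each list with the smallest p. Named as well were the 12 assigned genes with the most negative and the 12 with the most positive differences, at a *q* of at most 0.05. Other list members were chosen after their values were seen. Alternatives were the 6 compared arrays alone, a trended robust prior, array weights, no dim sets, cyclic loess, median centring, a replicate block, other thresholds, unique genes, other choices of probe sets and leaving out each array. Figures were drawn with matplotlib 3.10.9 in Python 3.11.15.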

Additional observations from a re-analysis of the deposited data

Results flagged for a closer look

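For 41 of the named genes the genotype difference after *Psm* was unlike that after MgCl2 by the test of the difference itself (limma, Psm difference minus MgCl2 difference on the log2 scale, *q* adjusted over all probe sets, of which 1.37% passed). The values here are those differences of differences. Many of the named genes were chosen by their difference after *Psm*, which is also part of this test. Many also got their name because they rose in the wild type. The count of 41 is therefore a description, with no reading against the 1.37%.

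Among SA-related genes, *PR1* gave -3.50 (*q* = 5.69e-08), *PR2* -4.26 (0.000824), *PR5* -2.12 (0.00125), *DLO1* -2.89 (1.82e-05), *PNP-A* -2.02 (1.82e-05), *WRKY46* -1.76 (7.09e-05) and *NUDT6* -1.70 (0.0021). Among genes of SA synthesis and SAR signals, *PBS3* gave -2.61 (1.82e-05), *PAD4* -1.28 (0.000967), *CBP60G* -0.91 (0.0115), *EDS1* -0.75 (0.0106), *NPR3* -1.09 (0.0145) and *SARD4* -1.09 (0.0173). The JA genes were *AOC3* at -1.63 (0.00013), *LOX4* at -1.82 (0.0164), *MYC2* at -1.80 (0.0463), *JAZ8* at -1.48 (0.0204) and *ORA47* at -2.58 (0.0267).

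The ER folding genes were *CRT1* at -1.10 (0.000595), *CRT2* at -1.27 (0.00789), *CRT3* at -1.97 (4.01e-05) and *PDIL1-2* at -1.20 (0.00234). Immune receptor and signaling genes were *BIR1* at -1.41 (7.09e-05), *MPK11* at -2.24 (0.000469), *WRKY33* at -1.35 (0.0249), *WRKY40* at -2.92 (0.00471), *CRK4* at -1.25 (0.0145), *CRK6* at -2.60 (7.09e-05), *CRK7* at -1.43 (0.00401) and *CRK45* at -0.68 (0.0195). *CZF1* gave -2.16 (0.0015), *CAF1B* -1.39 (0.0272), *ZAT6* -1.44 (0.0246), *GSTF6* -1.81 (0.000214), AT3G01830 -3.33 (1.63e-06) and AT4G27652 -2.86 (0.00698).

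Positive differences were found for AT1G62510 at 2.68 (0.0395), AT1G13650 at 2.00 (0.00474), *HCT* at 1.18 (0.02), *PRK* at 0.77 (0.0243) and *PSAN* at 0.66 (0.0359). *PR1* and *PR5* also differed between the 2 mutants after *Psm*, by -1.20 (0.00174) and -1.20 (0.0262) in *lecrk-VI.2-2* relative to *bak1-5*.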

How the results depend on the processing

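The count of lower probe sets stayed within 1.5 times of 351 under every alternative except that without the fold limit 1076 were lower and 293 higher. With the replicate number as a block, 352 were lower and 25 higher. Deviations of same-numbered arrays correlated at -0.21, -0.23 and -0.05 after *Psm*. After MgCl2 these correlations were 0.15, -0.19 and -0.20. With so few arrays a group, such values cannot tell whether equal numbers mark arrays that were grown or treated together. With array weights 244 were lower, with 68.4% of the 351 kept, and 11 were higher. As unique genes, 13 were higher. Leaving out 1 array gave 235 to 433 lower and 11 to 43 higher probe sets. After MgCl2, array weights gave 1 lower and 7 higher, and leaving out 1 array gave 0 lower and 0 to 3 higher. Over all gene lists 123 genes were lower, 13 with platform names alone, and 77 to 124 without 1 array, with 77 without *lecrk-VI.2-2* *Psm* replicate 3. Of 99 named genes, 78 passed the test, 52 of them under all 12 alternatives run for single genes, and none of the 78 changed direction. Among the named genes that did not pass, the sign changed for *NPR4* (0.09 to -0.04 without wild-type replicate 1), *PDF1.2* (0.06 to -0.01 without mutant replicate 2), *WRKY6* (-0.06 to 0.03 without wild-type replicate 3) and *SWEET11* (-0.05 to 0.02 with array weights, 0.01 with cyclic loess and 0.06 without mutant replicate 1). Signal limits the 57 lower probe sets that are dim, and the cause of these changes was not tested.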
